A study of Mus musculus with 8 samples.

Results

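The 8 genes described here encode kinases of the RAF, MEK, ERK and RSK tiers of the MAP kinase cascade and the scaffold that holds them together. They are Araf and Braf, Map2k1 and Map2k2 (which encode MEK1 and MEK2), Mapk3 (ERK1), Ksr1 (kinase suppressor of Ras 1), and Rps6ka1 and Rps6ka3 (RSK1 and RSK2). They were chosen by name, through the RefSeq accession of each array probe, and account for 8 of 36983 genes and unnamed features on the array and 15 of its 55681 non-control probes. All 8 genes and all 15 probes were bright enough on both arrays of at least 1 group to be tested. Shares of all genes given below include the unnamed features that were tested.

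In this cascade GTP-bound RAS recruits RAF kinases to the membrane, RAF phosphorylates MEK, and MEK phosphorylates ERK. ERK then activates RSK and many transcription factors, and it also feeds back on RAF, MEK and the scaffolds by phosphorylation. In mouse embryonic stem cells, ERK signalling downstream of FGF receptors is known for moving cells out of self-renewal towards lineage entry. The arrays measured RNA, so the values below are transcript levels and say nothing of kinase activity.

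Mouse embryonic stem cells (ESCs) were grown in medium with LIF, the cytokine that sustains their self-renewal, and with 250 nM PD173074, which blocks FGF receptors, in every group. The 4 groups were cells given 250 nM 4-hydroxytamoxifen (4OHT) for 8 h and then 1 µM of the MEK inhibitor PD0325901 for 2 h, untreated cells, and cells exposed to 4OHT alone, either 8 h or 10 h. Each group had 2 arrays, which the series describes as biological replicates. 4OHT activates proteins fused to a tamoxifen-responsive oestrogen receptor domain, and the labels name no such protein. The sample titles carry the words Pulse-Chase but do not say whether 4OHT stayed on the cells during the inhibition. If it did not, PD0325901-treated and 4OHT 10 h cells differ in hours of 4OHT as well as in the inhibitor. Of the groups compared, only PD0325901-treated and 4OHT 10 h cells were matched in hours from the start of 4OHT. The labels name no untreated group kept for 8 h or 10 h. In comparisons with untreated cells, 4OHT and time in culture therefore cannot be told apart. The part of time in culture in those changes was not tested. Neither strain nor clone is given.

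Each value is log2 of the processed signal minus log2 of that array's 75th percentile, so that 0 is the 75th percentile and a step of 1 is a doubling. Values of different probes are not comparable as levels, and each probe is compared only with itself. Of 59305 non-control spots, 36889 to 37789 were well above background on the replicate 1 arrays and 30218 to 31433 on the replicate 2 arrays. No spot was saturated, and 2 arrays per group limit the precision. All 11 ESC markers looked at were well above background on all arrays, but some changed in level. At 10 h of 4OHT against untreated cells Utf1 (1) and Dppa4 (0.95) rose. Nanog (-3.1) and Esrrb (-0.84) fell (limma, adjusted p = 0.000427 and 0.0414). These 4 were 36.4% of the list, against 27.9% of all genes. In PD0325901-treated against 4OHT 10 h cells 1 marker rose and 3 fell (36.4%, against 6.12% of all genes). Of 12 fibroblast (feeder cell) markers, 5 to 9 were above background; their summed signal, in multiples of the 75th percentile, was 14.4 to 25.9 in PD0325901-treated cells, 3.02 to 3.88 in untreated cells, 18.8 to 38.3 after 8 h of 4OHT and 20.3 to 42 after 10 h, most of it from Thy1, while Lum and Twist2 were not above background on any array. The list did not move as one: of its 7 tested genes 2 rose (Thy1 and Twist1) and 2 fell at 10 h of 4OHT against untreated cells (limma, adjusted p under 0.05, which 27.9% of all genes passed), with a median of -0.46. Those that fell were Col1a1, by 0.58 (adjusted p = 0.0126), and Pdgfrb, by 2.33 (adjusted p = 0.0417) and above background on 1 of the 2 arrays at 10 h. The 10 primitive endoderm markers summed to 75.6 to 126 in PD0325901-treated cells, 60.5 to 92.1 in untreated cells, 63 to 99.8 after 8 h and 66.1 to 98.4 after 10 h, most of it from Lama1 and Lamb1. Replicate 1 gave the higher sum in every group. In untreated cells Gata6 read -0.30 and -2.26 and Gata4 -0.77 and -2.16 (replicates 1 and 2), while Lamb1 read 4.65 and 4.62. None of the 10 passed in PD0325901-treated against 4OHT 10 h cells (6.12% of all genes did), where Lama1 changed by 0.57 (limma, adjusted p = 0.63, with the replicate number as a block 0.0139) and Gata6 by -1.04 (adjusted p = 0.663, with the block 0.00304). The part of these cells in the results below was not tested. The feedback gene Dusp6, an ERK phosphatase, rose by 2.95 ± 0.09 (log2, SE) at 10 h of 4OHT against untreated cells (limma, adjusted p = 0.000108), and it fell by 5.85 ± 0.09 in PD0325901-treated cells against 4OHT 10 h cells (adjusted p = 5.28e-05).

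Of the 8 genes, 1 rose and 1 fell after 8 h of 4OHT, and the same 2 genes did so after 10 h. Braf was the gene that rose, and Ksr1 was the gene that fell. A gene was called where its adjusted p in limma, a moderated linear model fitted across all genes, was under 0.05. The 2 calls of 8 stand against a background of 21.7% of all genes called at 8 h (10.3% higher, 11.5% lower) and 27.9% at 10 h (13.1% higher, 14.8% lower), a share near that of the 8 genes. The median change of the 8 genes was -0.04 at both times, and that of all genes was -0.04 at 8 h and -0.05 at 10 h. With the replicate number as a block in the fit, 2 rose and 1 fell at 8 h (31.9% of all genes called, 14.3% higher and 17.6% lower), and the count at 10 h was the same as without it (39%).

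In PD0325901-treated cells none of the 8 genes was called against 4OHT 10 h cells, where 6.12% of all genes were, nor against 4OHT 8 h cells (6.52% of all genes) or untreated cells (15.8%). At an unadjusted p under 0.05 the count was 1 of 8 against 4OHT 10 h cells, 1 against 4OHT 8 h cells and 3 against untreated cells. The corresponding shares of all genes were 21.2%, 22% and 33.1%. In the same order, the median change of the 8 genes was -0.12, -0.09 and -0.16, against -0.04, -0.04 and -0.07 over all genes. With the replicate number as a block, 1 gene was called lower against 4OHT 10 h cells (12.4% of all genes called, 5.76% lower) and 1 lower against 4OHT 8 h cells (14% called, 6.62% lower). Against untreated cells 1 was higher and 1 lower with the block (27.7% of all genes called, 11.5% higher and 16.2% lower). Between 10 h and 8 h of 4OHT, limma called 0 of 22692 genes and unnamed features with or without the block. Of these, 1501 (6.61%) but none of the 8 genes had an unadjusted p under 0.05. The comparisons of the 4OHT and PD0325901 groups share arrays, so their changes are given side by side and are not independent.

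**Figure D1:**
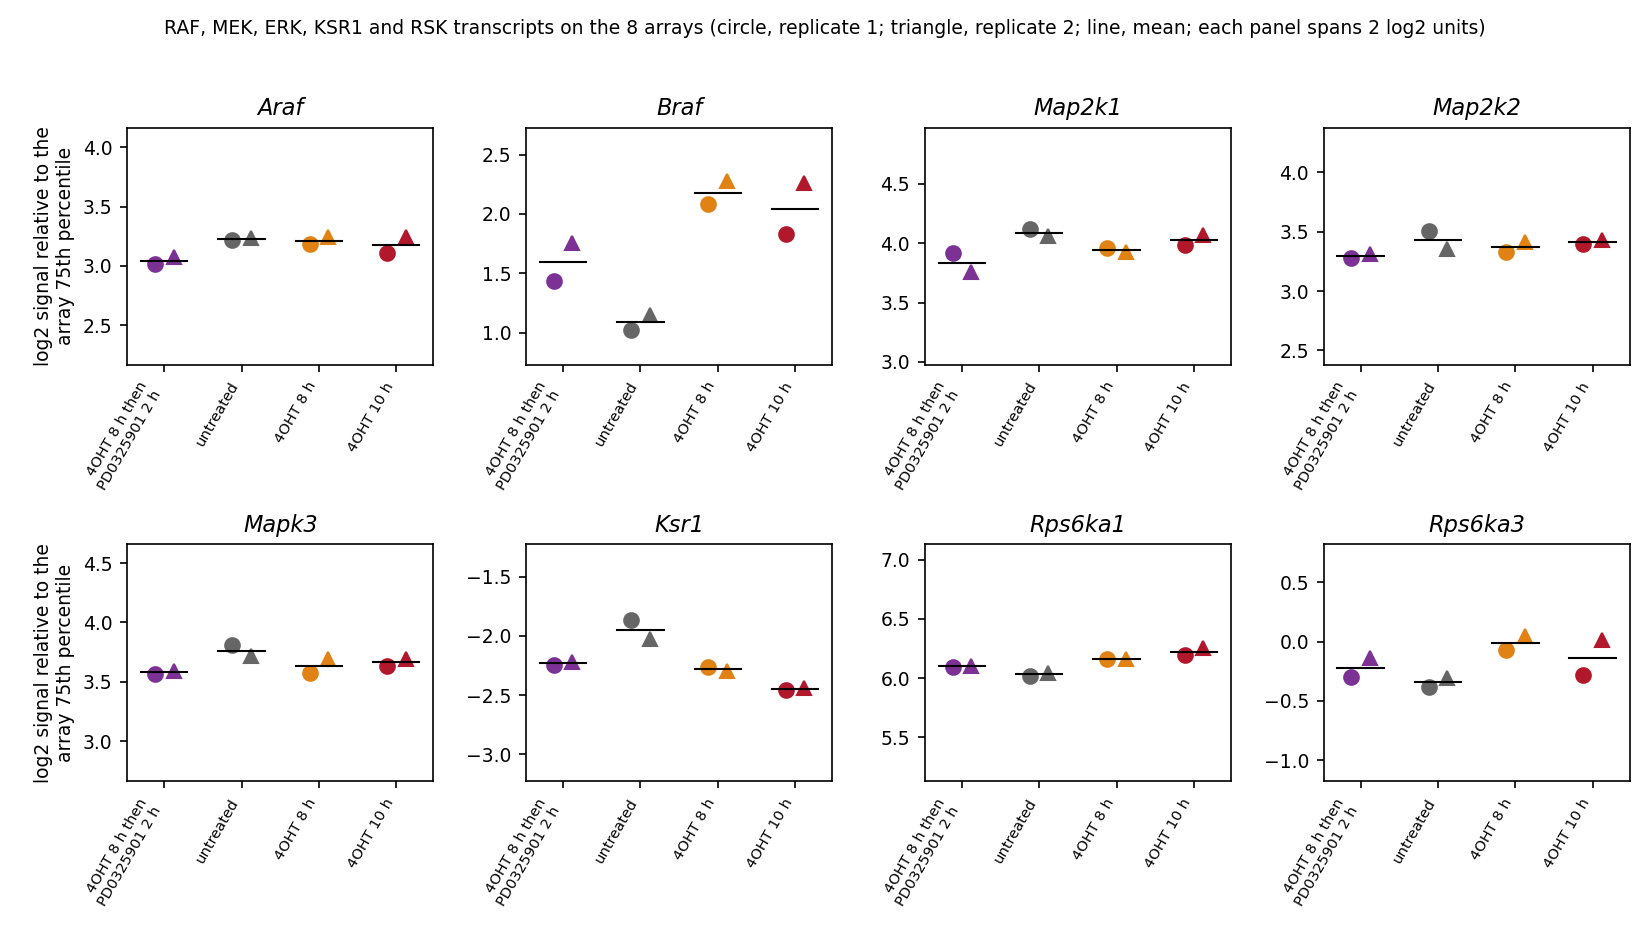
Log2 signal relative to the array's 75th percentile (y axis) of the brightest probe of each of the 8 genes on the 8 arrays, grouped on the x axis as 4OHT 8 h then PD0325901 2 h, untreated, 4OHT 8 h and 4OHT 10 h. Circles are replicate 1, triangles replicate 2 and lines the group means; Braf is at 2.09 and 2.27 after 8 h of 4OHT, above 1.02 and 1.15 in untreated cells, and the panels all span the same range.

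Braf encodes the RAF kinase with the highest basal activity of its family. Its brightest probe read 1.44 and 1.75 in PD0325901-treated cells (replicates 1 and 2). In the time course it read 1.02 and 1.15 in untreated cells, 2.09 and 2.27 at 8 h of 4OHT, and 1.83 and 2.26 at 10 h. The untreated arrays were the lowest, the PD0325901 arrays lay between them and all 4OHT arrays, and no group overlapped another except 4OHT 8 h and 10 h.

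At 8 h of 4OHT Braf averaged 2.18 ± 0.13, against 1.09 ± 0.09 in untreated cells (SD, n = 2 each), a 2.13-fold rise or a log2 change of 1.09 ± 0.18 SE (95% interval 0.64 to 1.55; limma, adjusted p = 0.0118). At 10 h it averaged 2.05 ± 0.31, a 1.94-fold rise over untreated cells (0.96 ± 0.18; interval 0.51 to 1.41; limma, adjusted p = 0.0145). Of 19631 genes and unnamed features well above background on all arrays, 610 (3.11%) had a larger rise at 8 h and 839 (4.27%) at 10 h. The rise at 8 h was 1.06 between the arrays of replicate 1 and 1.13 between those of replicate 2, and at 10 h 0.80 and 1.12. Leaving out single arrays ended the call at 8 h without untreated replicate 1 (adjusted p = 0.0635), untreated replicate 2 (0.0501) or 4OHT 8 h replicate 2 (0.0676), with changes of 1 to 1.19 over all 8 omissions. At 10 h the call ended without untreated replicate 1 (0.0728), untreated replicate 2 (0.0537) or 4OHT 10 h replicate 2 (0.0586), with changes of 0.74 to 1.18, and also without the filter on dim probes (0.0501).

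After PD0325901, Braf averaged 1.60 ± 0.22, against 2.05 ± 0.31 in 4OHT 10 h cells, a change of -0.45 ± 0.18 that missed the threshold (interval -0.90 to 0; limma, adjusted p = 0.239) and passed it with the replicate block (adjusted p = 0.0478). Against 4OHT 8 h cells the change was -0.58 (adjusted p = 0.138, with the block 0.0239). Against untreated cells it was 0.51 (interval 0.06 to 0.96; adjusted p = 0.119, with the block 0.021). Braf was thus ordered untreated, PD0325901, 4OHT 10 h and 4OHT 8 h, and no neighbouring groups in that order differed past the threshold without the block.

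A second Braf probe, to the same accession and much dimmer, was also lowest in untreated cells and highest in 4OHT cells. It read -1.47 and -1.33 in PD0325901-treated cells, and -2.07 and -2.28 in untreated cells, -1.03 and -0.77 at 8 h and -1.04 and -0.74 at 10 h of 4OHT. Its changes were 1.28 ± 0.15 at 8 h and 1.29 ± 0.15 at 10 h against untreated cells (limma over all kept probes, adjusted p = 0.00453 and 0.0036). It was -0.51 ± 0.15 in PD0325901-treated against 4OHT 10 h cells (adjusted p = 0.139). Against untreated cells the PD0325901 group was higher by 0.78 ± 0.15 on this probe, which passed the threshold (adjusted p = 0.0286).

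The Braf promoter is shown because Braf is the gene that rose. RefSeq places these 300 bases, 250 before the start of transcription to 50 after it, at chr6:39725414-39725713 on the minus strand of GRCm38.p6, and capitals mark 2 copies of the cyclic AMP response element TGACGTCA.
Braf: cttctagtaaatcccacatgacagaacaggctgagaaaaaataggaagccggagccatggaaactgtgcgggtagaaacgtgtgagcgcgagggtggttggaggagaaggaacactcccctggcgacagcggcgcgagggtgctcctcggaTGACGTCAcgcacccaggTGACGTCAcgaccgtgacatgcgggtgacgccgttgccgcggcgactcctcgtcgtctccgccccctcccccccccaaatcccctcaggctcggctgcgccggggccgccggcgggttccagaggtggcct
The copies begin 99 and 81 bases before the start. Of 32851 mouse promoters of the same length, 588 (1.79%) held this element on either strand and 13 held 2 or more copies. The window had a GC content of 65%, against a median of 52.7% over all promoters. A match of letters is a description, and no binding was measured.

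Araf, the family member with the weakest kinase activity, read 3.02 and 3.07 in PD0325901-treated cells, and 3.21 and 3.24 in untreated cells, 3.19 and 3.24 at 8 h and 3.11 and 3.24 at 10 h of 4OHT on its brightest probe. The change was -0.01 ± 0.08 at 8 h (interval -0.20 to 0.18; limma, adjusted p = 0.935) and -0.05 ± 0.08 at 10 h (adjusted p = 0.653). Both PD0325901 arrays were below all others, by 0.13 on average against 4OHT 10 h cells (-0.13 ± 0.08; interval -0.32 to 0.06; adjusted p = 0.404). Araf had 2 further probes, to another accession, and neither was called in any comparison. Their changes at 10 h were 0.34 and 0.15, opposite in sign to the brightest probe, and in PD0325901-treated against 4OHT 10 h cells they were -0.67 (adjusted p = 0.109) and -0.21 (adjusted p = 0.251).

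Map2k1 and Map2k2 encode the MEK kinases that PD0325901 binds. Map2k1, with 1 probe, read 3.92 and 3.76 in PD0325901-treated cells, and 4.12 and 4.06 in untreated cells, 3.96 and 3.93 at 8 h and 3.98 and 4.07 at 10 h of 4OHT. Both PD0325901 arrays lay below every untreated and 4OHT array. The change was -0.15 ± 0.08 at 8 h (interval -0.36 to 0.06; limma, adjusted p = 0.27) and -0.06 ± 0.08 at 10 h (adjusted p = 0.598). It was -0.19 ± 0.08 in PD0325901-treated against 4OHT 10 h cells (interval -0.40 to 0.02; adjusted p = 0.276) and -0.25 ± 0.08 against untreated cells (interval -0.46 to -0.05; adjusted p = 0.0992).

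Map2k2 read 3.28 and 3.31 in PD0325901-treated cells, and 3.51 and 3.36 in untreated cells, 3.33 and 3.41 at 8 h and 3.39 and 3.43 at 10 h of 4OHT. The untreated and 4OHT arrays overlapped, while both PD0325901 arrays were below all of them. Its changes were -0.06 at 8 h (limma, adjusted p = 0.626), -0.02 at 10 h (adjusted p = 0.863) and -0.11 in PD0325901-treated against 4OHT 10 h cells (interval -0.31 to 0.08; adjusted p = 0.478). A second probe of the gene gave -0.06, 0.04 and -0.02 in the same comparisons and was not called.

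Mapk3 encodes ERK1, a kinase that MEK activates. It read 3.57 and 3.59 in PD0325901-treated cells, and 3.81 and 3.72 in untreated cells, 3.58 and 3.69 at 8 h and 3.63 and 3.70 at 10 h of 4OHT. Both untreated arrays were above all others, by amounts that missed the threshold: the change was -0.13 ± 0.08 at 8 h (interval -0.32 to 0.06; limma, adjusted p = 0.288), -0.10 ± 0.08 at 10 h (adjusted p = 0.377) and -0.08 ± 0.08 in PD0325901-treated against 4OHT 10 h cells (adjusted p = 0.597). The second Mapk3 probe gave -0.13, -0.05 and 0.02.

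Ksr1 encodes a RAF-related pseudokinase that serves as a scaffold for RAF, MEK and ERK. Its brightest probe was well above background on every array but dim, at -2.25 and -2.22 in PD0325901-treated cells. In the time course it read -1.87 and -2.03 in untreated cells, -2.26 and -2.30 at 8 h of 4OHT and -2.46 and -2.44 at 10 h. The untreated arrays were the highest, the 4OHT 10 h arrays the lowest, and no 2 groups overlapped.

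At 8 h of 4OHT Ksr1 fell by 0.33 ± 0.08 against untreated cells (log2, SE; interval -0.53 to -0.14; limma, adjusted p = 0.0343). At 10 h it was 1.41-fold lower than in untreated cells, a change of -0.50 ± 0.08 (interval -0.70 to -0.30; limma, adjusted p = 0.00788). In PD0325901-treated cells it averaged -2.23, against -2.45 in 4OHT 10 h cells, a difference of 0.22 ± 0.08 that missed the threshold (interval 0.02 to 0.41; adjusted p = 0.198). Against untreated cells the PD0325901 group differed by -0.28 ± 0.08 (adjusted p = 0.0652, with the replicate block 0.0461). In the order 4OHT 10 h, 4OHT 8 h, PD0325901 and untreated, no neighbouring groups differed past the threshold without the block. The call at 8 h ended on leaving out any 1 of the 8 arrays except untreated replicate 2 (adjusted p = 0.0587 to 0.158), and also with quantile normalization (0.136), without the filter on dim probes (0.137), with a variance trend (0.106) and with only the 2 groups fitted (0.116), while the call at 10 h held without each array (adjusted p = 0.0161 to 0.0467).

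The fall of Ksr1 depended on the scaling and on the probe. With arrays centred on their median the changes were -0.20 at 8 h (adjusted p = 0.254) and -0.31 at 10 h (adjusted p = 0.0782), neither called, and with normexp background correction they were -0.14 (adjusted p = 0.174) and -0.23 (adjusted p = 0.0419). Median centring moved the median change of all genes to 0.10 at 8 h and 0.14 at 10 h, from -0.04 and -0.05, and the split of calls at 10 h to 4861 higher and 1852 lower, against 2978 and 3354. Relative to the median of all genes, Ksr1 changed by -0.29 at 8 h and -0.45 at 10 h under either scaling. Each scaling subtracts a constant per array, so these values are equal by construction and do not test the fall. The second Ksr1 probe, dimmer again, changed by -0.33 at 8 h (adjusted p = 0.198) and -0.20 at 10 h (adjusted p = 0.378), neither called, and by -0.22 in PD0325901-treated against 4OHT 10 h cells (adjusted p = 0.482), opposite in sign to the brightest probe.

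Ksr1 has 2 RefSeq promoters, shown because Ksr1 is the gene that fell: the upstream start at chr11:79146424-79146723 and the downstream start at chr11:79059787-79060086, both on the minus strand of GRCm38.p6. Capitals mark a match to the AP-1 element TGANTCA.
Ksr1 upstream start: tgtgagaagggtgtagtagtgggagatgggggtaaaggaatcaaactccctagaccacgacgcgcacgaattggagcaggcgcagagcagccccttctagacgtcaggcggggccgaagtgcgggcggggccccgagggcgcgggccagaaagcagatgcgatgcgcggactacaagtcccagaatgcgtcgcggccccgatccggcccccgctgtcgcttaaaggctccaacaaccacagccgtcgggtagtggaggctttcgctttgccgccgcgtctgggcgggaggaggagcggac
Ksr1 downstream start: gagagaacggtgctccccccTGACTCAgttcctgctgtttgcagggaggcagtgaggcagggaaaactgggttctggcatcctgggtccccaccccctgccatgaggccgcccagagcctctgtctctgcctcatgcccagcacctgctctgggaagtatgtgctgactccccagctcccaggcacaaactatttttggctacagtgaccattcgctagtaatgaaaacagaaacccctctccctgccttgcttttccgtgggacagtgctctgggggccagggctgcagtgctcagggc
The AP-1 match lies 230 bases before the downstream start, and 7.81% of all promoters held 1. The files do not say from which start the measured transcripts came. Of the 8 genes, 6 had promoters in the RefSeq table, 9 promoters in all. The ETS element CCGGAAGT (in 3.89% of all promoters) and the serum response element known as the CArG box (1.63%) matched none of the 9, and the EGR element GCGNGGGCG (5.55%) matched 1 promoter of Rps6ka1. Both strands were searched, and no match says only that these letters are not in the window.

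Rps6ka1 and Rps6ka3 encode RSK kinases, which ERK activates directly and which phosphorylate ribosomal protein S6 and other targets. Rps6ka1, with 1 probe, read 6.10 and 6.11 in PD0325901-treated cells, and 6.02 and 6.05 in untreated cells, 6.17 and 6.16 at 8 h and 6.19 and 6.25 at 10 h of 4OHT. All 4OHT arrays were above both PD0325901 arrays, and these were above both untreated arrays. The differences were small: 0.13 ± 0.06 at 8 h (limma, adjusted p = 0.205), 0.19 ± 0.06 at 10 h (interval 0.03 to 0.35; adjusted p = 0.0795) and -0.12 ± 0.06 in PD0325901-treated against 4OHT 10 h cells (adjusted p = 0.356).

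Rps6ka3 read -0.30 and -0.14 in PD0325901-treated cells, and -0.38 and -0.30 in untreated cells, -0.07 and 0.05 at 8 h and -0.29 and 0.01 at 10 h of 4OHT. The 4OHT arrays were above the untreated ones, at 10 h only narrowly for replicate 1. The change at 8 h was 0.33 ± 0.12 (interval 0.02 to 0.64; limma, adjusted p = 0.118), and it passed with the replicate block (adjusted p = 0.0294). At 10 h it was 0.21 ± 0.12 (adjusted p = 0.263), and in PD0325901-treated against 4OHT 10 h cells -0.08 ± 0.12 (adjusted p = 0.76). With arrays centred on their median both RSK genes were called higher at 10 h, Rps6ka1 by 0.38 (adjusted p = 0.0194) and Rps6ka3 by 0.39 (adjusted p = 0.0373), on a scale where the median of all genes rose as given for Ksr1. On that scale Rps6ka3 was also called at 8 h (0.47, adjusted p = 0.0286), and with an intensity trend in the variance Rps6ka1 was called at 10 h (0.19, adjusted p = 0.023). A second Rps6ka3 probe, above background on 6 of 8 arrays, changed by 0.04 at 8 h and 0.50 at 10 h and was not called.

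Taking the 6 genes other than Braf and Ksr1, the changes lay between -0.15 and 0.33 at 8 h, with 95% intervals inside -0.36 to 0.64, and between -0.10 and 0.21 at 10 h, with intervals inside -0.29 to 0.51. In PD0325901-treated against 4OHT 10 h cells they lay between -0.19 and -0.08, with intervals inside -0.40 to 0.23. The arrays of the 2 groups did not overlap for 7 of the 8 genes in that comparison, against 52.2% of all genes (6.12% called). In PD0325901-treated cells they did not overlap for 7 genes against 4OHT 8 h cells (52.6% of all genes) and for 8 against untreated cells (60.3%). Between 4OHT and untreated cells they did not overlap for 6 genes at 8 h (63.7% of all genes) and for 5 at 10 h (68.7%).

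**Figure D2:**
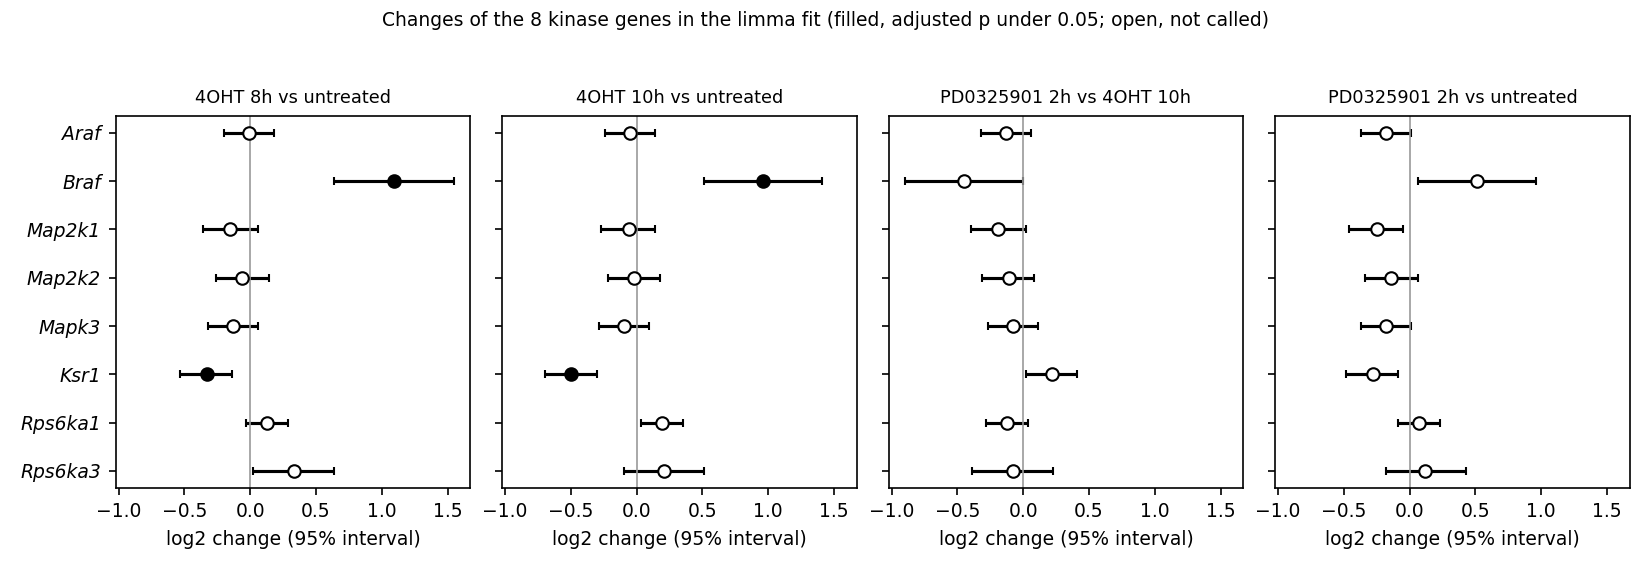
Log2 change (x axis, points, with 95% limma intervals) of the 8 genes in 4 comparisons, with filled points for adjusted p under 0.05. Braf at 1.09 and 0.96 and Ksr1 at -0.33 and -0.50 are the filled points in the comparisons of 4OHT with untreated cells, and no point is filled in the PD0325901 comparisons.

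Of the 6 genes with more than 1 probe, only Braf had all its probes called, at both times of 4OHT (20.2% of all kept probes called at 8 h and 26.3% at 10 h). At 10 h the probes of Braf, Mapk3, Ksr1 and Rps6ka3 shared a sign, while those of Araf and Map2k2 did not. After PD0325901, against 4OHT 10 h cells, all probes of Araf, Braf and Map2k2 were negative, and none was called, where 5.28% of all kept probes were.

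**Figure D3:**
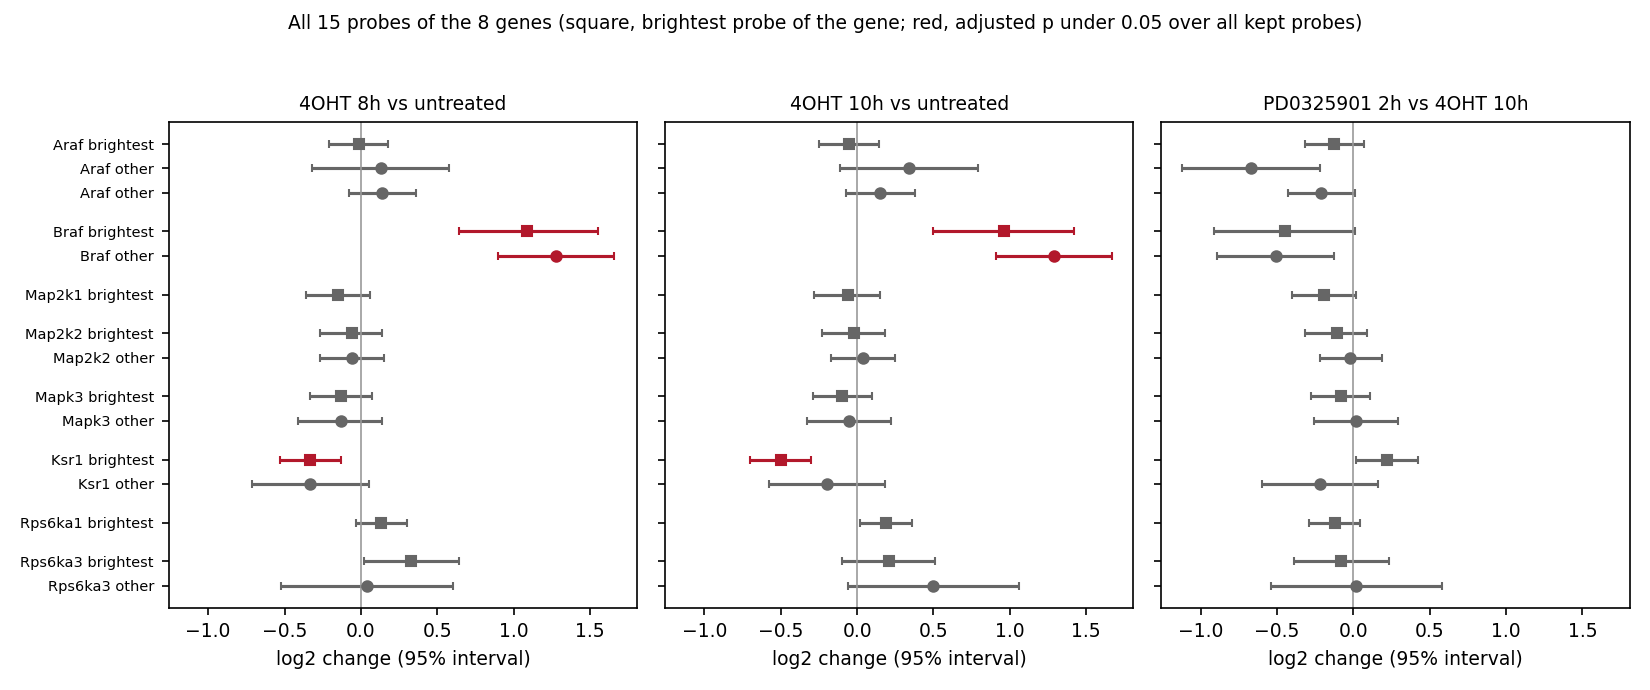
Log2 change (x axis, points, with 95% limma intervals) of each of the 15 probes in 3 comparisons, squares for the brightest probe of a gene and circles for its other probes, red where the adjusted p over all kept probes is under 0.05. Both Braf probes are red against untreated cells, at 1.09 and 1.28 at 8 h and 0.96 and 1.29 at 10 h, and of the Ksr1 probes the brightest alone is red.

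Other kinases of the cascade, with Map2k5 and Mapk7 of the separate ERK5 cascade, were looked at as a list of 11. Of these Ksr2 matched no probe, Mos was not bright enough to be tested and 9 were tested. At 10 h of 4OHT 1 rose and 1 fell (27.9% of all genes called), and in PD0325901-treated against 4OHT 10 h cells 1 rose (6.12% of all genes). The medians were 0 and -0.07, against -0.05 and -0.04 over all genes. At 8 h 1 rose and 3 fell, Map2k5 among these (21.7% of all genes called), with a median of 0.01. The 4 calls were 2 when either 4OHT 8 h array was left out and 2 with dim probes kept. With the replicate block 1 rose and 4 fell at 8 h (31.9% of all genes called), and 1 rose and 2 fell at 10 h (39%). In PD0325901-treated against 4OHT 10 h cells 1 rose and 1 fell with the block (12.4%).

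Rps6ka4, which encodes the related nuclear kinase MSK2, fell under 4OHT and was higher again after PD0325901. It read 1.01 and 1.19 in PD0325901-treated cells, and 1.39 and 1.20 in untreated cells, 0.25 and 0.28 at 8 h and 0.25 and 0.26 at 10 h of 4OHT. The 10 h change was -1.04 ± 0.10 (limma, adjusted p = 0.00172), called under all 18 alternatives run. In PD0325901-treated against 4OHT 10 h cells it rose by 0.84 ± 0.10 (adjusted p = 0.0111), a call that ended without 4OHT 10 h replicate 1 (0.061), 4OHT 10 h replicate 2 (0.0728) or PD0325901 replicate 2 (0.0582), with dim probes kept (0.0616) and with the other 2 groups left out of the fit (0.0674).

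Map3k8, which encodes the MEK-activating kinase TPL2, read -4.08 and -3.52 in PD0325901-treated cells. It was not well above background on either untreated array (-5.22 and -4.82), and read -3.61 and -2.96 at 8 h and -3.05 and -2.35 at 10 h of 4OHT. Untreated values below their array's lowest signal well above background were raised to that floor. The mean of Map3k8 was then 4.13-fold higher at 10 h and 2.75-fold higher at 8 h. The limma test used the fitted values without that floor. These changed by 2.32 ± 0.35 at 10 h (adjusted p = 0.00711) and 1.73 ± 0.35 at 8 h (adjusted p = 0.0218). The gene passed the filter only through the groups where it was higher. The 8 h call ended without the filter on dim probes (adjusted p = 0.0689) and without untreated replicate 1 (0.104), untreated replicate 2 (0.0623) or 4OHT 8 h replicate 2 (0.1). In PD0325901-treated against 4OHT 10 h cells the change was -1.10 ± 0.35 (adjusted p = 0.154, with the replicate block 0.00518).

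Of 25 genes for scaffolds, regulators and RAS proteins, all tested, 9 rose and 2 fell at 10 h of 4OHT (44% of the list, against 27.9% of all genes), with a median of 0.24 against -0.05 over all genes. At 8 h 5 rose and 1 fell (24% of the list, against 21.7% of all genes), with a median of 0.17. With the replicate block 7 rose and 2 fell at 8 h (31.9% of all genes called). The number that rose at 8 h was 1 to 4 on leaving out 1 array (1 without 4OHT 8 h replicate 2; 2 without 4OHT 8 h replicate 1; 3 without either untreated array), 2 without the filter on dim probes, 8 with normexp and 9 with a variance trend. The number that rose at 10 h was 2 to 7 on leaving out 1 array (2 without 4OHT 10 h replicate 1; 5 without untreated replicate 1, untreated replicate 2 or 4OHT 10 h replicate 2), 13 with arrays centred on their median, and 11 with the block (39% of all genes called). The 10 h number was also 3 without the filter on dim probes, 2 with only the 2 groups fitted, 6 with quantile normalization and 10 with normexp. After PD0325901, against 4OHT 10 h cells, 1 of 25 fell and none rose (median -0.07, with 6.12% of all genes called). With the block 4 fell (12.4% of all genes called, 5.76% lower).

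Rras2, which encodes the RAS relative TC21, read 2.22 and 2.28 in PD0325901-treated cells, and 1.24 and 1.08 in untreated cells, 2.62 and 2.42 at 8 h and 2.57 and 2.53 at 10 h of 4OHT. It rose at 10 h by 1.39 ± 0.10 against untreated cells (limma, adjusted p = 0.000728), and was still higher by 1.09 in PD0325901-treated than in untreated cells (adjusted p = 0.00344). The arrestin gene Arrb1, whose product can scaffold RAF, MEK and ERK, rose by 0.78 ± 0.10 at 10 h (adjusted p = 0.00402) and stood 0.77 above untreated cells after PD0325901 (adjusted p = 0.00838). Iqgap1, which encodes another ERK cascade scaffold, fell by 0.84 ± 0.06 at 10 h (adjusted p = 0.000804) and was 0.79 lower in PD0325901-treated than in untreated cells, a change of -0.79 ± 0.06 (adjusted p = 0.00255). For these 3 genes the calls at 10 h held under all 18 alternatives run.

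Lamtor3, which encodes the MEK-binding scaffold MP1, rose by 0.60 ± 0.10 at 10 h (limma, adjusted p = 0.00991), with 2 further probes at 0.61 and 0.63 both called. Its call ended without 4OHT 10 h replicate 1 (adjusted p = 0.0538) and with only the 2 groups fitted (0.0526). Cnksr3 fell by 0.38 ± 0.11 at 10 h (adjusted p = 0.0481), a call held by 7 of 18 alternatives. It ended with median centring (-0.19, adjusted p = 0.284), quantile normalization (0.0516), no filter on dim probes (0.146) and only the 2 groups fitted (0.128), and on leaving out any array other than untreated replicate 1. Shoc2, whose product helps RAS-bound RAF lose an inhibitory phosphate, read 0.31 and 0.26 in untreated cells. Under 4OHT it rose by 0.48 ± 0.07 at 8 h and 0.41 ± 0.07 at 10 h (limma, adjusted p = 0.00801 and 0.0106). These calls held under 17 and 15 of 18 alternatives. In PD0325901-treated against 4OHT 10 h cells it fell by 0.38 ± 0.07 (0.30 and 0.34, against 0.74 and 0.65, adjusted p = 0.0396). This last call held under 5 of 18 alternatives. It ended on leaving out any 1 of the 8 arrays (adjusted p = 0.0681 to 0.172), with normexp (0.0637), quantile normalization (0.0574) and median centring (0.0742), with dim probes kept (0.191) and with the other 2 groups left out of the fit (0.162).

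The kinases of the parallel p38 and JNK cascades, 14 genes that were all tested, held 1 that rose and 2 that fell at 10 h of 4OHT (27.9% of all genes called), with a median of -0.07. After PD0325901, against 4OHT 10 h cells, 1 rose (6.12%), with the same median. With the replicate block 1 rose and 4 fell at 10 h of 4OHT (39% of all genes called). In PD0325901-treated against 4OHT 10 h cells 2 rose and 2 fell with the block (12.4%). Map2k6, which encodes a kinase of p38, read 0.87 and 0.90 in PD0325901-treated cells, against -0.02 and -0.09 in 4OHT 10 h cells and 1.88 and 1.49 in untreated cells. It fell by 1.74 ± 0.13 at 10 h against untreated cells (limma, adjusted p = 0.000777). It rose by 0.94 ± 0.13 in PD0325901-treated against 4OHT 10 h cells (adjusted p = 0.0178), a call that ended without either array of PD0325901 or of 4OHT 10 h (adjusted p = 0.0762 to 0.104) and without the filter on dim probes (0.0789). Mapk11, which encodes p38 beta, rose by 0.99 ± 0.07 at 10 h (adjusted p = 0.000728). Map2k3, another p38 kinase gene, fell by 0.52 ± 0.12 (adjusted p = 0.024), a call lost with median centring (adjusted p = 0.157), without the filter on dim probes (0.083), with only the 2 groups fitted (0.0819) and without 4OHT 10 h replicate 2 (0.112) or untreated replicate 1 (0.0994). The split in this list turned with median centring, to 4 higher and 1 lower.

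**Figure D4:**
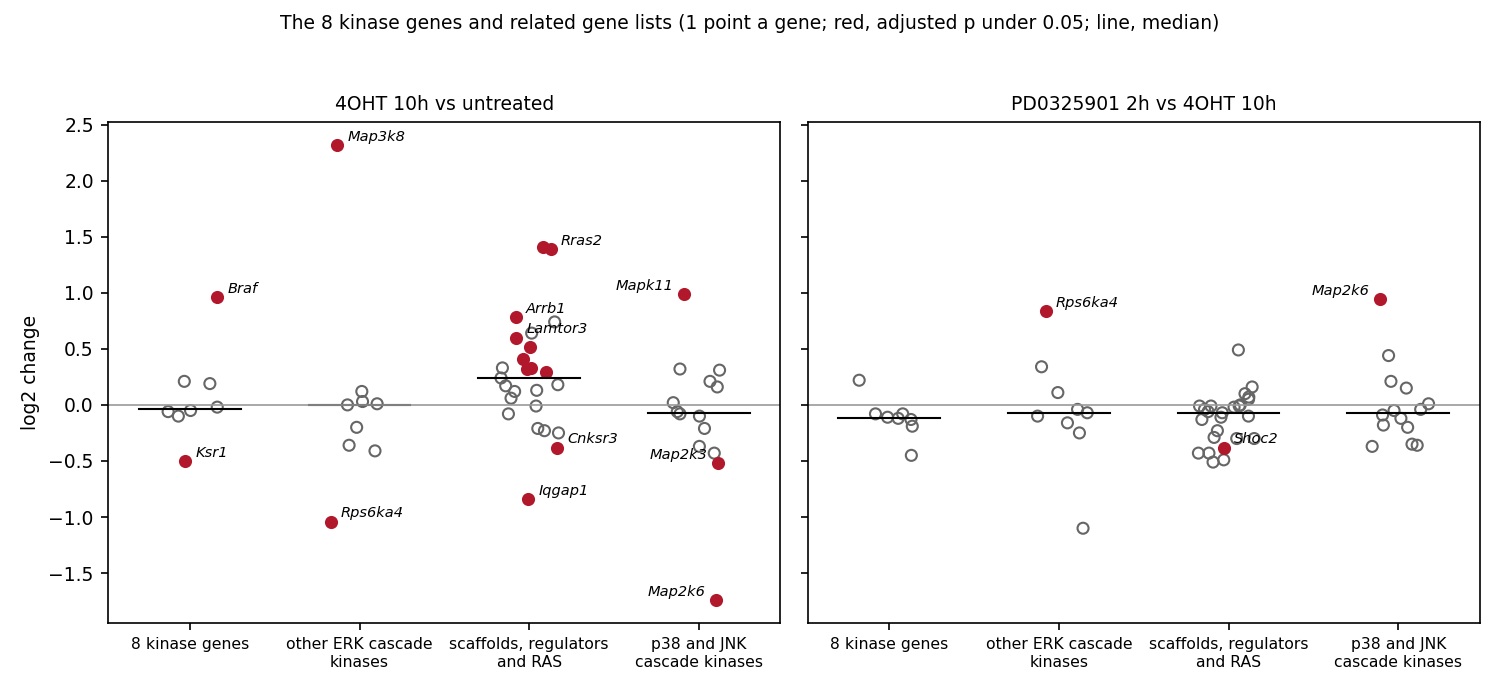
Log2 change (y axis) of the 8 kinase genes and of 3 related lists, 1 point a gene, in 4OHT 10 h against untreated cells (left) and PD0325901-treated against 4OHT 10 h cells (right), red where the adjusted p is under 0.05, with lines at the medians. Braf at 0.96 and Ksr1 at -0.50 are the red points of the 8 genes on the left, none is red on the right, and Map3k8 at 2.32 is a fitted value for a gene not above background in untreated cells.

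The genes whose pattern was most like that of Braf over the 8 arrays, among 12466 genes with a proper symbol well above background on all arrays, were Lsg1 (Pearson r = 0.9907) and Rp2 (r = 0.99), and 139 genes had an r over 0.95. In 4OHT against untreated cells Rp2 changed by 0.94 ± 0.14 at 8 h and 0.86 ± 0.14 at 10 h, and Lsg1 by 0.52 ± 0.08 and 0.45 ± 0.08 (log2, SE). Most like Ksr1 were Zfp90 (r = 0.9887) and Gatd1 (r = 0.9851), with 95 genes over 0.95. Zfp90 changed by -0.47 ± 0.08 at 8 h and -0.76 ± 0.08 at 10 h. These genes were chosen for their likeness, so no test is given, and the r describe 8 arrays in 4 groups, which the genes share along with each array's scaling.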

How the data were processed

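RNA of 8 mouse ESC samples was hybridised to 8 single-colour Agilent arrays on 1 slide. The processed signal, an intensity, was made by the authors with Agilent Feature Extraction 11.0.1.1 (per the file headers, background-subtracted and detrended, not scaled between arrays); the deposited values of the series as a whole are the same intensity rounded, within 0.497%. The labels name Cy5 while the deposited files hold Agilent's green channel, which changes no direction with 1 channel an array.

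Signals were divided by the 75th percentile of the array's non-control spots, put on the log2 scale and analysed with limma 3.58.1 (R 4.3.3; version 1.17.8 of data.table; Python 3.11.15, pandas 2.3.3, numpy 2.4.6 and matplotlib 3.10.9). Outlier spots were left out and spots of a probe averaged. The filter kept 30336 probes that the scanner software marked well above background in both replicates of 1 group or more. A gene took its brightest kept probe. Symbols came from RefSeq accessions (27656 of 55681 probes with 1 symbol, 28025 with none). Kept probes with no symbol went under their array identifier and count among the genes tested. The model gave each group a mean over the 8 arrays together (4 residual degrees of freedom, prior 1.71), with Benjamini-Hochberg adjustment over the 22692 or 22693 genes tested and a threshold of 0.05. The fit was tested on simulated data.

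Groups share replicate numbers 1 and 2, which are also slide rows, while each slide column holds 1 group, so that column and group cannot be told apart. Deviations of same-numbered arrays correlated at 0.287 to 0.358 in all group pairs, so the numbers were taken to pair the arrays. The main fit has no block, and blocked values stand beside results whose call they change. Alternatives were normexp (on the median signal, offset 50), quantile normalization, median centring, other filters, a variance trend, other uses of the probes, the deposited rounded values, only the groups compared, and leaving out each array.

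The 8 genes and the lists were chosen with earlier results of these data known. Of each list, up to 3 called genes per direction with the smallest adjusted p were named for 4OHT 10 h against untreated and PD0325901 against 4OHT 10 h, plus Dusp6 as an output gene and the 2 genes most correlated with each of the 8 genes that was called. Some genes of the lists are not reported here and are left out of the list counts. Promoters are RefSeq's (GRCm38.p6); the array design uses another build, so no other coordinates are given. No protein sequences were used here.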

Additional observations from a re-analysis of the deposited data

How the results depend on the processing

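The number of the 8 genes called in 4OHT 8 h against untreated cells was 2, and it was 1 with normexp, with quantile normalization, without the filter on dim probes, with a variance trend and with only the 2 groups fitted. It was 3 with the replicate block, and with median centring it was again 2, with Ksr1 lost (adjusted p = 0.254) and Rps6ka3 gained (0.0286). It was 0 to 1 on leaving out 1 array. At 10 h the number was 2, 1 without the filter, and 1 to 2 on leaving out 1 array. It was 3 with median centring, which lost Ksr1 (adjusted p = 0.0782) and gained Rps6ka1 and Rps6ka3, and 3 with a variance trend, which gained Rps6ka1 (0.023). In PD0325901-treated against 4OHT 10 h cells and against 4OHT 8 h cells it was 0, and 1 with the replicate block. Against untreated cells it was 0, 1 with normexp (Map2k2, lower), 1 with a variance trend (Map2k1, lower), 2 with the block and 2 with the mean of all kept probes. In these comparisons and in 4OHT 10 h against 8 h it was 0 without any 1 array. Over all comparisons, 528 values of single genes under the alternatives held 507 on the same side of the threshold with the same direction where called, 8 no longer called, 13 newly called and 0 reversed, and 384 with an array left out held 371, 13, 0 and 0. Apart from the blocked values given beside the results, the block changed no call of the 8 genes. An uncalled value changed sign in 25 and 11 of these. The share of calls that were higher at 8 h was 66.8% with median centring and 47.2% without, and in PD0325901-treated against untreated cells 67.2% and 44.5%. Why results moved with a setting was not tested. Normexp used the median signal because the mean signal is not among the columns used here.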
